A study of Mus musculus with 16 samples.

Results

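The genes described here encode the proteins of the cytosolic ribosome, in lumbar dorsal root ganglia of mice with or without a knock-in that the labels name TrkA/C. They were chosen by symbol alone: every entry of the count table whose symbol is that of a large subunit (Rpl) or small subunit (Rps) protein, with the P-stalk genes Rplp0 to Rplp2, Rpsa and the paralogs ending in l or l1. That gave 84 of the 24982 entries, 52 of the large and 32 of the small subunit, and 80 of them had counts high enough to be tested. The symbol rule leaves out genes such as Rps3a1, Rpl36al and Fau, which also encode ribosomal proteins or precursors of them, and the kinases of the Rps6k family.

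Ganglia of spinal levels L4 to L6 on the injected side came from C57BL/6 mice aged 10 to 12 weeks, killed 14 days after an injection into the ankle joint. Groups were taken from the sample titles, with 4 libraries each: wild type (WT) with vehicle, which the titles call saline; WT with complete Freund's adjuvant (CFA, an oil suspension that provokes joint inflammation, titled MoAr); knock-in (KI) with vehicle; and KI with CFA. Every library pooled 6 ganglia from 2 mice, and the knock-in construct, its promoter and the cells that carry it are not described in the labels. WT CFA 1 has a knock-in tag in its genotype field against its title, and its level of Ntrk3, the gene for TrkC, was 48.4 CPM (counts scaled to a common library size), inside the range of 29.3 to 61.4 over the 8 WT libraries and below all 8 KI libraries (99.1 to 138).

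A ribosome joins a small subunit, which reads the messenger RNA, to a large subunit, which forms the peptide bond. Each ribosome carries a single copy of nearly every ribosomal protein, so cells make these proteins in matched amounts, and neurons also send ribosomes and ribosomal protein transcripts into their axons. The transcripts are short and abundant, and many begin with a run of pyrimidines, the terminal oligopyrimidine tract through which mTOR signalling sets their translation.

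RefSeq promoters (build GRCm38.p6, 300 bases: 250 before to 50 after the annotated start) were found for 63 of the 84 genes, in 75 entries. A run of at least 5 pyrimidines that begins with C lay within 30 bases of the start on the gene's strand in 63 of these 75, against 59.1% of all 32851 promoters in the table. The letters CGGAAG, the core of sites for ETS-family factors, were present on either strand in 58.7% of the 75 and in 16.9% of all promoters, and AAGATGG, the core of YY1 sites, in 16.0% and 6.34% on either strand. CTTTCC on the gene's strand, itself a pyrimidine string, was in 37.3% and 14.1%. On the reverse strand CGGAAG reads CTTCCG, whose first 5 letters can overlap a pyrimidine run. The sequences span 60 bases before the start and 30 bases from it onward for 7 members named further on, with the longest such run near the start in capitals. Rpl31, Rplp2 and Rpl6 are members that differed between genotypes in at least one comparison of the main fit described further on, and Rps25 did so only in alternative fits. Rps6 stands for the abundant core genes, and Rpl7l1 and Rpl3l are paralogs that moved apart from the rest. The windows are chr9:44407654-44407743, chr1:39367791-39367880, chr7:141447591-141447680, chr5:121204441-121204530, chr4:86857338-86857427, chr17:46782627-46782716 and chr17:24727766-24727855 in the order of the lines, with Rps6 and Rpl7l1 on the minus strand and the others on the plus strand; RefSeq starts can differ from the GENCODE gene bounds given further on.
Rps25: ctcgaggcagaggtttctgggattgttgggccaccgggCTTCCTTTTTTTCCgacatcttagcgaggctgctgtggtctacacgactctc
Rpl31: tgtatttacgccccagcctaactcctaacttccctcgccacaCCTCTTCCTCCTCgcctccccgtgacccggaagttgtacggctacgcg
Rplp2: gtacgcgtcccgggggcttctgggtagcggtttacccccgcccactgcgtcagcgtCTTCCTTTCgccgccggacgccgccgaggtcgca
Rpl6: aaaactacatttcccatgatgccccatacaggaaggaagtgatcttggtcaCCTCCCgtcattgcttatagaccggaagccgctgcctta
Rps6: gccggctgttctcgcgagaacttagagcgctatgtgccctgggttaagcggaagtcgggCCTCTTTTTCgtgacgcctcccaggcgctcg
Rpl7l1: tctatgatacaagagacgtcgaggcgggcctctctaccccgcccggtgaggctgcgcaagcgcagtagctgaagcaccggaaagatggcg
Rpl3l: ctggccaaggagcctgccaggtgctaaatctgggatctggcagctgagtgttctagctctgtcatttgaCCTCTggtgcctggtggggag
The run had 14 bases in Rps25, 13 in Rpl31, 10 in Rps6, 9 in Rplp2, 6 in Rpl6 and 5 in Rpl3l, where it lies after the start. In Rps6 it began 1 base before the annotated start, in Rplp2 4, in Rpl6 9, in Rpl31 18 and in Rps25 22. Rpl7l1 had no such run in the searched window, and it is the one of the 7 with AAGATGG in its 300 bases. CGGAAG or its reverse was present in the 300 bases of Rps25, Rpl31, Rplp2, Rpl6 and Rps6, and those letters were not found in the same windows of Rpl7l1 and Rpl3l.

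Library totals ran from 22742209 to 40910947 counts. The 84 genes together took 0.936% to 1.53% of a library. The shares in the 4 WT vehicle libraries were 1.04%, 1.04%, 1.13% and 1.53%. In WT CFA they were 0.975%, 0.936%, 1.07% and 1.14%. In KI vehicle they were 0.997%, 0.993%, 0.995% and 0.948%, and in KI CFA 1.12%, 1.01%, 0.994% and 0.988%. WT vehicle 4 stood apart at the top, and the other 15 libraries lay between 0.936% and 1.14%. Group means were 1.18% ± 0.236 (SD, n = 4) for WT vehicle, 1.03% ± 0.0924 for WT CFA, 0.983% ± 0.0240 for KI vehicle and 1.03% ± 0.0631 for KI CFA. Without WT vehicle 4 the WT vehicle mean was 1.07%.

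WT vehicle 4 differed from the other libraries along transcript length. For each gene the mean log2 CPM over the 16 libraries was subtracted, and medians were taken over genes. The median of the 80 tested ribosomal protein genes was 0.48 in WT vehicle 4 and between -0.15 and 0.11 in the other 15 libraries. The 925 other genes with transcripts of at most 1000 nt had a median of 0.39 in WT vehicle 4 and between -0.15 and 0.09 elsewhere, and the 1801 genes with transcripts over 6000 nt had -0.28 and between -0.08 and 0.15. Of the 80 members, 52 had transcripts of at most 1000 nt and none had one over 6000 nt, and their median length was 853 nt against 2974 nt for the other genes tested. After the trend with length over all genes was subtracted in each library, the members' median was 0.14 in WT vehicle 4 and between -0.05 and 0.04 elsewhere. WT vehicle 4 had 25208600 counts, within the range of the others, and the highest scaling factor of the 16 (trimmed mean of M-values, TMM, 1.04). What set its length profile was not tested. A smaller difference along length also separated the other vehicle libraries by genotype. For other genes with transcripts of at most 1000 nt the group mean was 0.02 in WT vehicle without WT vehicle 4 and -0.08 in KI vehicle. Over 6000 nt it was -0.01 and 0.09. Among CFA libraries the means were 0.0007 (WT) and -0.02 (KI) for these short transcripts, and -0.0005 and 0.005 for the long ones.

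**Figure D1:**
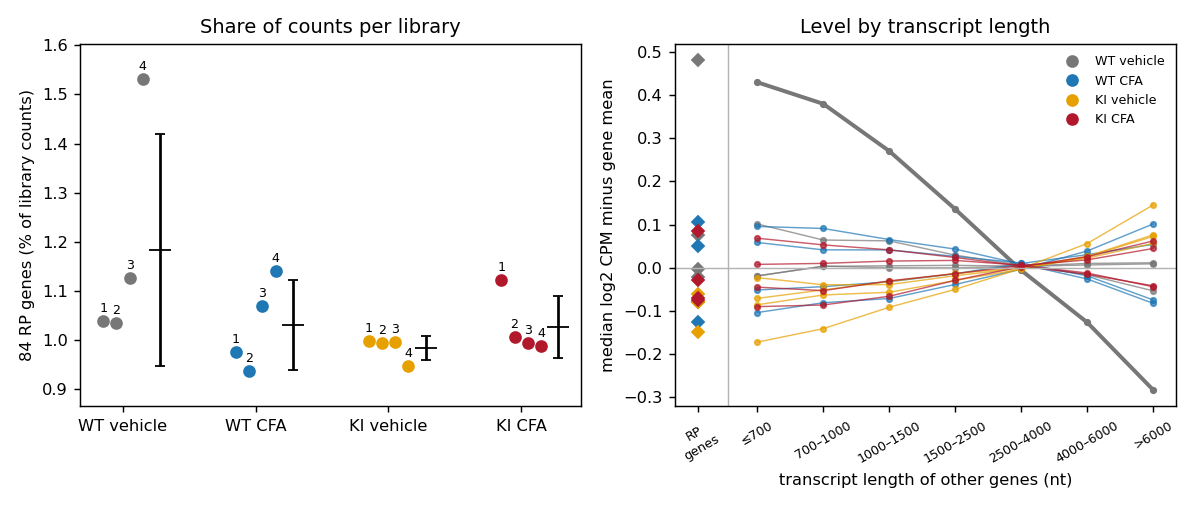
Left: share of all library counts taken by the 84 ribosomal protein genes; points are libraries with their replicate number, bars the mean ± SD of 4. Right: median log2 CPM after subtraction of each gene's mean, for the 80 tested ribosomal protein genes (diamonds) and for other genes in 7 classes of transcript length (lines, 1 per library). WT vehicle 4 (thick line) is high for short and low for long transcripts, and its ribosomal protein median was 0.48 beside 0.43 for other transcripts of at most 700 nt.

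Of the 80 tested members, 76 (95.0%) had their highest level in WT vehicle 4, as did 21.1% of the other genes tested. The exceptions were Rpl7l1, Rpl3l, Rps4l and Rpl34. Since WT vehicle 4 is 1 of the 4 libraries in a control group, medians and calls of the comparisons that use WT vehicle are given below with and without it.

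Levels per transcript length (CPM per kilobase of the representative transcript, mean ± SD over 16 libraries) were highest for Rpl19 (355 ± 51.6), Rplp1 (350 ± 60.2), Rpl23a (347 ± 38.5), Rps15 (345 ± 41.2) and Rpl41 (315 ± 62.5). These 5 lie within an SD of their neighbours in the order. Rpl19 and Rpl23a sit near the exit of the peptide tunnel, Rplp1 belongs to the acidic stalk that recruits elongation factors, and Rpl41 is a very short basic peptide. In CPM without regard to length the highest were Rpl4 (mean 356), Rpl3 (333), Rpsa (329), Rplp0 (305) and Rps6 (273). Rps6 is the small subunit protein whose phosphorylation by S6 kinases is read as a sign of mTOR activity, and Rpsa also occurs in a form known as the laminin receptor.

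A few genes of the core ribosome were counted near 0. Rpl26 had 2 counts in KI CFA 4 and 0 in the other 15 libraries, Rps27 had 15 to 42 counts, Rpl30 18 to 52 and Rpl34 57 to 132, while 73 of the 80 tested members had a mean above 30 CPM. Each of these encodes a constitutive part of the ribosome. Of the 84 genes, 81 share at least one 50-base stretch of transcript with an annotated pseudogene in GENCODE M21, and 41 share more than 50% of their stretches with another gene. For Rps27 the shared part was 98.6%, for Rpl30 79.2%, for Rpl26 61.0% and for Rpl34 37.9%, but Rpl9, with 93.3% shared, was counted at 259 ± 52.2 CPM per kilobase. Whether shared sequence set the low counts was not tested, and levels of these genes are uncertain in these data.

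The narrowest SD of log2 CPM within groups belonged to Rpl7l1 (0.06), Rpl3 (0.07), Rpl6 (0.08), Rpl10 (0.08) and Rpl14 (0.09). The widest belonged to Rpl3l (1.28), Rps27 (0.46), Rpl30 (0.46), Rps25 (0.28) and Rps14 (0.27). Rps27 and Rpl30 have low counts, whereas Rps25 and Rps14 have 69.3 and 116 CPM on average and had their highest values in WT vehicle 4 (117.9 and 217 CPM).

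After group means were removed, most members varied together across the 16 libraries. Pearson's r of a gene's log2 CPM with the mean of the other members had a median of 0.95 over the 16 libraries, with 72 of 80 above 0.8 and 5 below 0.5 (Rpl7l1, Rpl34, Rpl3l, Rpl30 and Rps4l). Without WT vehicle 4 the median was 0.87, with 53 of 80 above 0.8 and 7 below 0.5. With the length trend subtracted it was 0.64, with 21 above 0.8 and 31 below 0.5. These are descriptions: the points share library depth and length profile. The genes outside the group that were most like its mean level, among 11201 with a mean of at least 5 CPM, were Rps3a1 (r = 0.98), Fau (0.98), Nedd8 (0.98), Arpc3 (0.97) and Gpx4 (0.97), with transcripts of 736 to 977 nt. The lowest r belonged to Pcnx2 (-0.98), Cdc42bpa (-0.98) and Prune2 (-0.98), with transcripts of 7236 to 12512 nt. With the length trend subtracted the highest were Pgrmc1 (0.91), Ric8a (0.90) and Erp29 (0.90), and among the first 10 were Gas5 (0.88), a host gene of small nucleolar RNAs, and Rack1 (0.86), a protein of the small subunit.

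**Figure D2:**
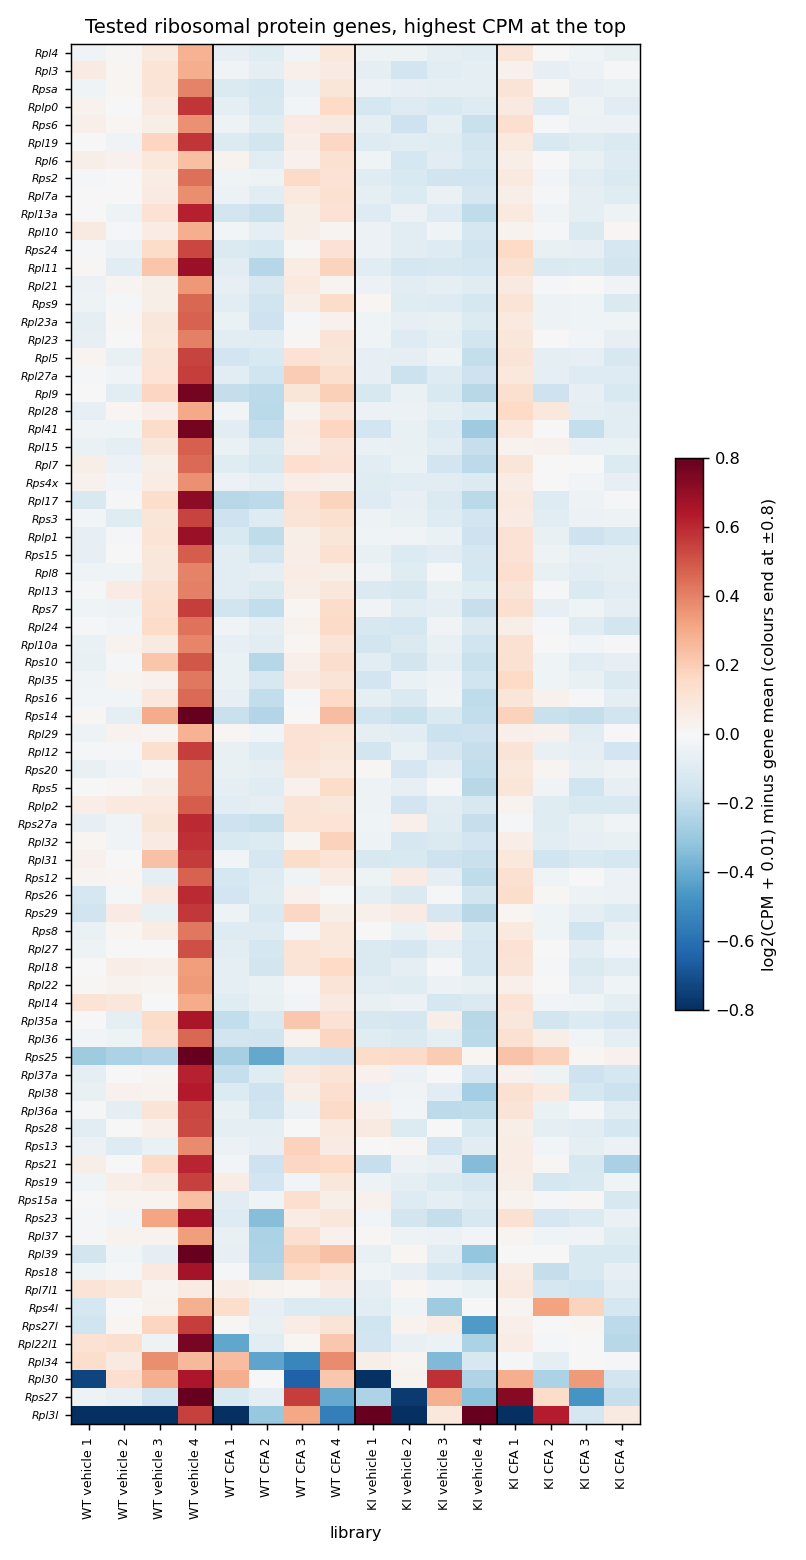
Log2(CPM + 0.01) of the tested ribosomal protein genes, less a few not reported here (rows, highest mean CPM at the top) in each of 16 libraries (columns), minus the gene's mean. The WT vehicle 4 column is high in nearly all rows, and Rps25 is low in the other 7 WT libraries.

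Knock-in against wild type after vehicle asks what the genotype changes in an uninflamed joint's ganglia. Here 78 of 80 members lay below 0, with a median log2 fold change of -0.24 (lowest -0.55) beside 0.0015 for all 15507 genes tested. Of the 80, 3 fell and 1 rose at an adjusted p under 0.05 (edgeR's quasi-likelihood test, Benjamini-Hochberg over all genes), beside 4.34% of all genes (2.19% lower and 2.15% higher). The count of members called is near the share among all genes. At an unadjusted p under 0.05 there were 63 members, against 23.8% of all genes, and 62 of them were lower, against 12.6%. In 42 members every KI vehicle library lay below every WT vehicle library, against 7.89% of all genes, and no member showed the reverse, against 6.67%. Every library is a pool of 6 ganglia from 2 mice, and p-values measure the spread between such pools. The median was -0.25 for the large and -0.24 for the small subunit. In bulk ganglia, fewer cells of a type and less RNA per cell cannot be told apart.

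The genes that fell were Rpl3, Rpl31 and Rpl6. Rpl3, which lies at the peptidyl transferase centre (chr15:80077791-80091868, minus strand), was at 348, 336, 358 and 407 CPM in WT vehicle and at 316, 299, 312 and 314 in KI vehicle. The groups did not overlap, and the highest value was that of WT vehicle 4. Its log2 fold change was -0.22 ± 0.055 (SE; edgeR adjusted p = 0.0304). Rpl31, a protein at the rim of the peptide exit tunnel (chr1:39367842-39371911, plus strand), was at 100.4, 98.5, 115 and 145 CPM in WT vehicle and 89.97, 90.4, 87.5 and 86.7 in KI vehicle, again without overlap (-0.37 ± 0.098, edgeR adjusted p = 0.0400). Of its exonic bases 25.3% overlap a gene on the opposite strand. Of its 50-base stretches 70% occur in other genes, on either strand, so the shares can cover the same bases. Its counts are uncertain, to an extent that was not tested. Rpl6, a protein of the large subunit's surface (chr5:121204481-121209241, plus strand), was at 249, 247, 255 and 284 CPM against 235, 218, 227 and 219 (-0.20 ± 0.057, edgeR adjusted p = 0.0482). Other planned size factors and filters in edgeR gave Rpl6 an adjusted p of 0.0501 to 0.0610, and DESeq2 gave 0.0128. Leaving out 1 library ended the call of Rpl6 in 12 of 16 fits, of Rpl31 in 8 and of Rpl3 in 6. The 5 next in order of p, from Rplp2 to Rps2, had fold changes between -0.29 and -0.22 and adjusted p from 0.0508 to 0.0659 in the same edgeR fit. A group of better-known members had like values: Rpl5 and Rpl11, which bind Mdm2 when ribosome assembly fails, were at -0.26 and -0.36, Rplp0 at -0.31, Rpsa at -0.20 and Rps6 at -0.25, none of them called.

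Without WT vehicle 4 the median of the 80 was -0.11, 27 had an unadjusted p under 0.05 (16.8% of all genes did), and Rpl3 (-0.16), Rpl31 (-0.24) and Rpl6 (-0.16) were not called. In that fit 2 members rose, Rpl3l and Rps25, and none fell (2.56% of all genes were called). Leaving out WT vehicle 4 did not remove the length difference between the other WT vehicle libraries and the KI vehicle libraries. With the length trend as an offset the median was -0.05, 24 members had an unadjusted p under 0.05 (17.6% of all genes), and Rpl3l alone was called (3.78% of all genes). The non-overlapping members numbered 7 on length-adjusted values (Rpl12, Rpl18, Rpl22, Rpl31, Rpl3, Rplp0 and Rps2), beside 5.92% of all genes. The count of 4 called also moved when other libraries were left out. It was 13 without WT vehicle 1 (4.39% of all genes were called) and 19 without WT vehicle 2 (5.78%). It was 1 without WT vehicle 3 (2.34%), KI vehicle 2 or KI vehicle 3 (2.61% each), 2 without WT CFA 1 (3.38%) or KI CFA 3 (3.36%), and 0 without KI vehicle 1 (2.26%) or KI vehicle 4 (1.81%). A fit on the groups compared alone called 0 of 79 members (48 at an unadjusted p under 0.05; 1.42% of all genes called), and DESeq2 called 24, all lower (9.52% of all genes). Limma-voom with quality weights called 4, Rpl3, Rpl31 and Rpl14 lower and Rps25 higher (5.15% of all genes).

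After CFA the members lay around 0. The median of the 80 was -0.01, with 51 below and 29 above 0, and edgeR called 0 members beside 2.84% of all genes. At an unadjusted p under 0.05 there was 1 member, Rps25, against 12.7% of all genes; DESeq2 called 0 (4.3% of all genes), and limma-voom with quality weights (4.1%) and edgeR on the groups compared alone (3.06%) each called Rps25. Rps25 was also the 1 member whose KI libraries all lay above the WT libraries (3.7% of all genes), and none lay below (4.44%). On length-adjusted values Rps25 and Rps26 lay higher (4.49% of all genes) and Rpl7a lower (5%) without overlap. Rpl3, Rpl31 and Rpl6 were at -0.03, -0.11 and -0.05 in this comparison. Without WT vehicle 4 edgeR called 1 member, Rps25 (4.17% of all genes). Rpl7l1, a paralog of Rpl7 thought to act in ribosome assembly, had the second smallest p (-0.11 ± 0.054, edgeR adjusted p = 0.40).

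Averaged over both injections, 78 of 80 members were below 0 (median -0.13), 32 had an unadjusted p under 0.05 (24.4% of all genes) and 2 fell: Rpl31 (-0.24 ± 0.069, edgeR adjusted p = 0.0346) and Rplp2, the other acidic stalk protein (-0.19 ± 0.057, edgeR adjusted p = 0.0480). Of all genes 8.96% were called, 4.64% lower and 4.33% higher, a larger share than among the members. Rplp2 was at 105, 107, 107 and 142 CPM in WT vehicle, 95.5, 96.3, 109 and 108 in WT CFA, 98.6, 91.3, 95.7 and 93.0 in KI vehicle and 104, 94.8, 93.2 and 93.4 in KI CFA. Its genotypes overlapped, with KI CFA 1 and KI vehicle 1 above the 2 lowest WT CFA libraries. Rpl31 was at 96.8, 89.5, 109 and 106 CPM in WT CFA and 104, 87.9, 90.1 and 89.1 in KI CFA. Relative to the members' median in each library, Rpl31 lay between -0.01 and 0.16 (log2, gene mean at 0) in the 8 WT libraries and between -0.13 and 0.00 in the 8 KI libraries. In the fit without WT vehicle 4 the median was -0.06, Rpl31 (-0.18) and Rplp2 (-0.13) were called as well, and Rps25 and Rpl3l were called higher (9.14% of all genes were called). With the length trend as an offset Rpl31 fell by 0.15 (edgeR adjusted p = 0.0208), Rpl3l was called higher, and Rplp2 was at -0.09 and not called (9.44% of all genes were). DESeq2 called 7 members (12.1% of all genes) and limma-voom 3, Rpl31 and Rpl7l1 lower and Rps25 higher (10.1%). The count of 2 was 4 without WT vehicle 1, WT vehicle 4, WT CFA 2 or KI CFA 1 (8.27% to 9.14% of all genes were called in these fits) and 6 without WT vehicle 2 (8.95%). It was 1 without WT vehicle 3, KI vehicle 2 or KI vehicle 3 (7.36% to 7.65%), and 0 without WT CFA 3, WT CFA 4, KI vehicle 1, KI vehicle 4, KI CFA 2, KI CFA 3 or KI CFA 4 (6.35% to 7.51%).

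**Figure D3:**
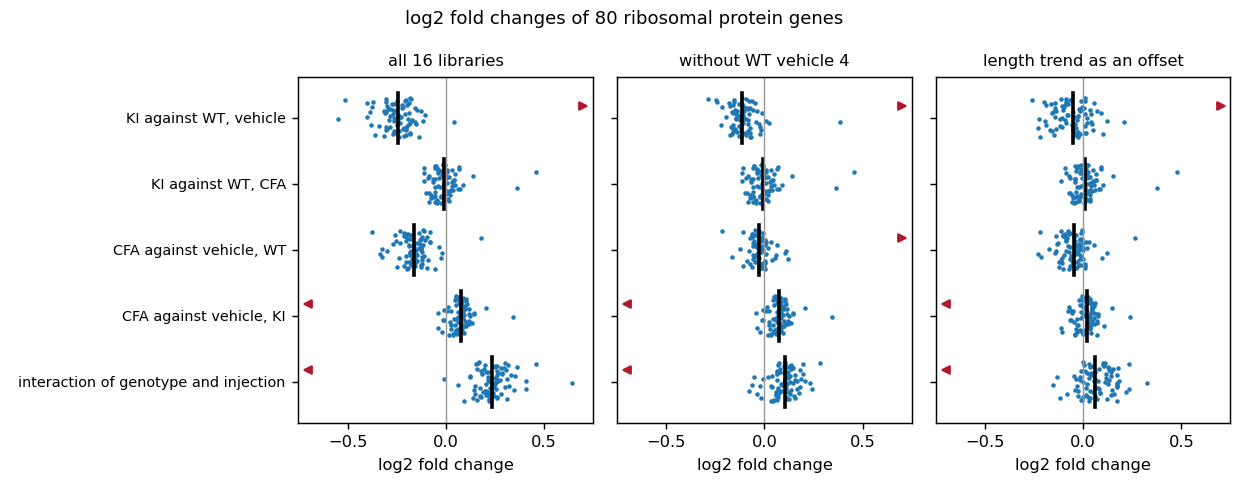
Log2 fold changes of the 80 tested ribosomal protein genes in 5 comparisons (points; bars are medians) in the fit of all 16 libraries, without WT vehicle 4, and with the length trend as an offset; triangles are values beyond ±0.7, all Rpl3l. The median of KI against WT after vehicle goes from -0.24 to -0.11 and -0.05.

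Rps25 is a small subunit protein near the head of the subunit, best known as a protein that internal ribosome entry sites need, and its gene lies at chr9:44407139-44410427 on the plus strand (mm10), where 24.8% of its exonic bases overlap Trappc4 on the opposite strand. Counts were 55.7, 56.9, 57.7 and 117.9 CPM in WT vehicle and 56.3, 51.1, 60.6 and 60.5 in WT CFA. They were 74.99, 75.3, 78.2 and 68.6 in KI vehicle and 79.3, 76.95, 68.5 and 69.3 in KI CFA. So 7 WT libraries lay below all 8 KI libraries, and WT vehicle 4 lay above every library. With WT vehicle 4 set aside, 1 of the 80 members had all KI libraries above the WT libraries, and that was Rps25; 1.10% of all genes did, so the count of 1 is near the background. None of the 80 had them all below (1.73% of all genes).

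Of the 50-base stretches of Rps25, 72.8% occur in other genes on either strand, with 33.6% in Trappc4, and what this does to its counts was not tested. With all 16 libraries Rps25 was not called: its log2 fold change was 0.04 ± 0.172 after vehicle, 0.36 ± 0.172 after CFA and 0.20 ± 0.121 on average (edgeR adjusted p = 0.91, 0.39 and 0.32). In the fit without WT vehicle 4 it was called higher in KI after vehicle (0.39 ± 0.068, edgeR adjusted p = 0.0040), after CFA (0.36 ± 0.062, adjusted p = 0.0016) and on average (0.38 ± 0.046, adjusted p = 2.8e-05). WT vehicle 4 is in neither CFA group: the CFA fold change stayed at 0.36, and its error shrank since all groups share an estimate of the spread. The CFA groups fitted alone gave 0.37 (edgeR adjusted p = 0.0090). After vehicle and on average, leaving out WT vehicle 4 drops the highest Rps25 level of the 16 libraries. That value went against the difference, so the p-values for vehicle and the average hold only with it set aside. Limma-voom with quality weights, which can count a deviating library for less, called Rps25 in the 3 comparisons (0.35, 0.38 and 0.36, limma-voom adjusted p = 0.0401, 0.0366 and 0.0016). The weight given to WT vehicle 4 was not examined, so this fit is not separate support beside the one without that library. The length trend as an offset gave 0.29 on average with an adjusted p of 0.051, and the skeletal muscle score as a covariate 0.14 with 0.60.

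When library sizes were computed from the members alone, so that each was compared with the other ribosomal protein genes of its library, Rps25 was higher in KI on average (0.36 ± 0.078, edgeR adjusted p = 0.0133), the 1 member of 80 called in that comparison beside 4.07% of all genes. This scaling was added after seeing the data, and it moved the median of all genes to 0.12 in that comparison and to 0.22 after vehicle. Relative to the members' median it lay between -0.31 and -0.19 (log2, gene mean at 0) in 7 WT libraries and between 0.09 and 0.28 in the 8 KI libraries. WT vehicle 4 was at 0.32, on the side of the KI libraries, while its Ntrk3 (29.3 CPM) and Ngfr (1081 CPM, against 624 to 736 in the 8 KI libraries) were on the WT side. Among other tested genes within 100000 bases, on average over injections and without WT vehicle 4, C2cd2l fell (-0.13) in the edgeR fit. Trappc4 was at -0.11 and Ccdc84 at 0.19, and neither was called.

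**Figure D4:**
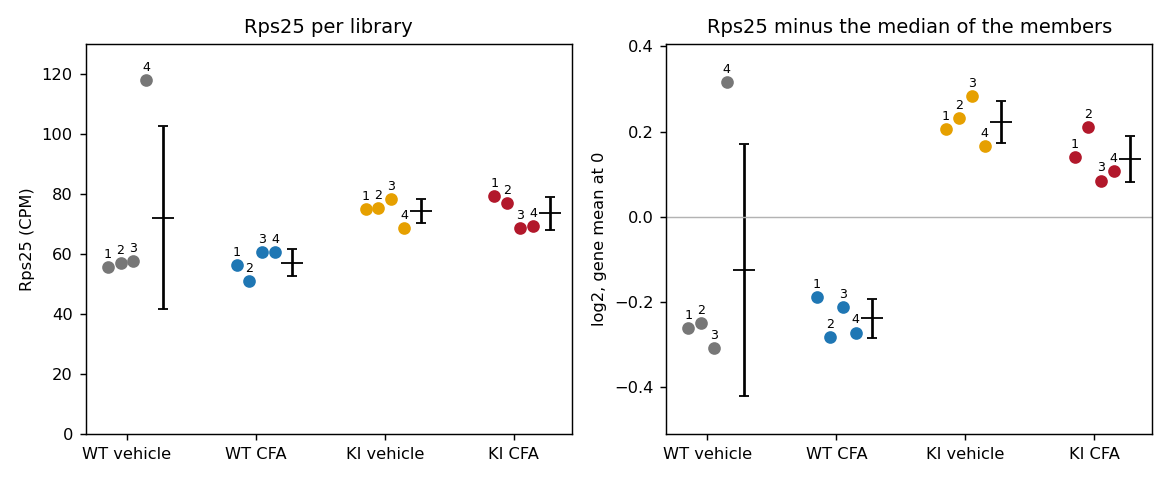
Rps25 by library, as CPM (left, axis from 0) and as log2 level minus the median of the tested ribosomal protein genes of that library (right); points carry replicate numbers, bars are the mean ± SD of 4. The 8 KI libraries lie above 7 of the 8 WT libraries in both panels, and WT vehicle 4 lies with or above the KI libraries.

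Among the 8 paralogs, levels and behaviour were mixed. Rpl10l, known from the testis, had 0 counts in all libraries, which allows at most 3 counts, or 0.0733 to 0.132 CPM, in a library (counting error only). Rpl32l had 1 to 7 counts, and Rpl39l had 12 counts in WT CFA 2 and 9 in WT CFA 3 and at most 1 in each of the others. Rpl22l1 reached 12.7% of the counts of Rpl22, Rps4l 15.8% of those of Rps4x and Rpl7l1 22.5% of those of Rpl7. GENCODE M21 annotates Rps4l as a transcribed processed pseudogene and Rpl32l as a processed pseudogene, although both symbols pass the rule. Rps27l, which p53 is known to induce, was counted at 11.0 CPM on average, and no ratio to Rps27 is drawn because of that gene's low counts. The ratio of Rpl22l1 to Rpl22 was highest in WT vehicle 4 (16.7%, against 9.88% to 13.6% elsewhere) and that of Rpl7l1 to Rpl7 lowest there (17.3%, against 20.2% to 25.2%).

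Rpl3l, the paralog that takes the place of Rpl3 in heart and skeletal muscle (chr17:24727820-24736143, plus strand), was the member that rose in KI after vehicle (3.49 ± 0.877, edgeR adjusted p = 0.0334). It had 101 and 107 counts in KI vehicle 1 and KI vehicle 4, and 1 to 14 counts in the other 14 libraries, KI vehicle 2 and 3 with 5 and 8 among them. Of 12 skeletal muscle markers 4 rose in the same comparison (Ttn, Mylpf, Myh2 and Acta1), beside 2.15% of all genes. In the fit without WT vehicle 4, 9 of the 12 rose, where 2.56% of all genes were called in either direction. None of the 12 markers was at 0 over all libraries. Their summed level was 1101 and 1081 CPM in KI vehicle 1 and 4 and 1.85 to 148 CPM in the other 14. With a muscle score as a covariate Rpl3l was at 1.34 (edgeR adjusted p = 0.32), and without KI vehicle 1 and 4 at 0.25 (adjusted p = 0.92). Leaving out KI vehicle 1 or KI vehicle 4 alone, or any of WT vehicle 1 to 3, also ended the call. The median of all 80 members, relative to their means, was -0.06 in KI vehicle 1 and -0.15 in KI vehicle 4, beside -0.08 in both KI vehicle 2 and KI vehicle 3. Among the WT libraries, WT vehicle 4 had both the highest summed muscle level (96.6 CPM, against 1.85 to 44.1) and the highest member median (0.48). With the muscle score as a covariate the members' median fold change after vehicle was -0.27.

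**Figure D5:**
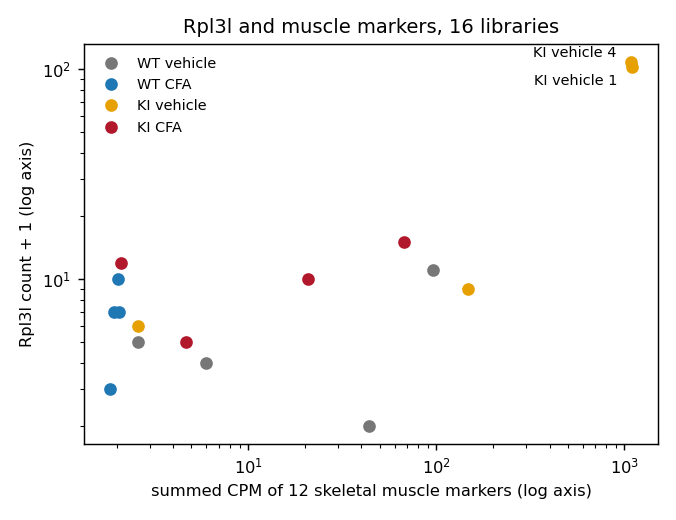
Count of Rpl3l plus 1 against the summed CPM of 12 skeletal muscle markers in each library, both on log axes, coloured by group. KI vehicle 1 and 4, with 101 and 107 counts, stand apart in both.

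For CFA against vehicle, the comparison of an inflamed with an uninflamed joint, edgeR called none of the 80 members and 0% of all genes in either genotype. In WT the median was -0.16, 79 of 80 lay below 0 and 11 had an unadjusted p under 0.05 (6.96% of all genes); libraries of no member were free of overlap (1.53% of all genes higher, 1.48% lower). On length-adjusted values Rps13 lay higher and Rpl3 lower without overlap (1.81% and 1.54% of all genes). Rps23 (-0.33) and Rpl14 (-0.15) had the smallest p, with edgeR adjusted p = 0.70 for both. With WT vehicle 4 left out that median was -0.03, and no member had an unadjusted p under 0.05 (4.29% of all genes). In KI the median was 0.08, 73 of 80 lay above 0, and 1 had an unadjusted p under 0.05, Rpl3l, whose fitted change was -2.85 (5.68% of all genes). In 6 KI members (Rpl10a, Rpl15, Rpl21, Rpl3, Rps4x and Rps6) every CFA library lay above every vehicle library, against 2.28% of all genes, and none lay below (2.04%). Rps6, for one, was at 258, 242, 258 and 240 CPM in KI vehicle and 298, 270, 263 and 263 in KI CFA, with the highest in KI CFA 1 (0.13 ± 0.071, edgeR adjusted p = 0.89). On length-adjusted values Rpl36 lay higher and Rpl37a lower without overlap (1.88% and 1.61% of all genes), and 1 of 80 each way is no more than that background. Over both genotypes edgeR called 0 members beside 0.0258% of all genes, with 0 at an unadjusted p under 0.05 (6.57% of all genes), and the median was -0.05. Without WT vehicle 4 that median turned to 0.02, with 0 called (0.032% of all genes). Leaving out KI vehicle 2 gave 1 call in KI, Rpl3l (0.339% of all genes). DESeq2 called 0 members in WT (0.0709% of all genes), in KI (0.0967%) and over both (0.368%), as did limma-voom (0.00645%, 0% and 0.0451%).

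The interaction, in which the change with CFA in KI is set against that in WT, was above 0 in 78 of 80 members with a median of 0.23. EdgeR called 0 members and 0% of all genes, with 15 members at an unadjusted p under 0.05 (6.29% of all genes), led by Rpl14 (0.24 ± 0.087), Rps6 (0.25 ± 0.1001) and Rpl3 (0.20 ± 0.077), each at an edgeR adjusted p of 0.72. Leaving out WT vehicle 4 gave a median of 0.10 with 0 called, and 5 had an unadjusted p under 0.05 (4.83% of all genes). With the length trend as an offset it was 0.06 and 4 did (4.62% of all genes). DESeq2 and limma-voom also called 0.

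Other genes of ribosome supply and translation were described with lists, each also in the fit without WT vehicle 4, which was added for the lists after seeing the data. Of all genes 4.34% were called after vehicle and 23.8% had an unadjusted p under 0.05; without WT vehicle 4 these shares were 2.56% and 16.8%. After vehicle, the 78 mitochondrial ribosomal protein genes, which are encoded in the nucleus and serve a separate ribosome, had a median of -0.19 in KI against WT and 38 at that p. Of these 1 fell, Mrps15 (-0.30), a smaller share than among all genes. Their summed level was highest in WT vehicle 4 (2746 CPM, against 1971 to 2305 in the other libraries), and without it the median was -0.11, 13 were at that p and none was called, with Mrps15 at -0.21.

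The 20 tested translation factors and other genes with a known oligopyrimidine tract had a median of -0.16 and 13 at that p, with none called; Eef1b2 was at -0.30 and Eef1g at -0.21. The median was -0.10 without WT vehicle 4, with 4 at that p. The 31 ribosome biogenesis genes were at -0.08 (4 at that p), the 13 genes of RNA polymerase I at -0.05 (3) and the 9 host genes of small nucleolar RNAs at -0.15 (1), with none called. These medians were -0.06, -0.01 and 0.04 once WT vehicle 4 was left out. The 18 mTOR pathway genes went the other way, with a median of 0.09 and 8 at that p but none called, and without WT vehicle 4 they were at 0.06 with 4. Of the 12 p53 targets none was called either (median 0.05 with 3 at that p, and 0.06 with 1 when WT vehicle 4 was left out), Bax being at -0.37. Nuclear oxidative phosphorylation genes, chosen for their short transcripts, had a median of -0.22 in 24 tested, 18 at that p and 1 that fell, Ndufb3 (-0.41). Their median was -0.09 without WT vehicle 4, with 4 at that p, and Ndufb3 fell (-0.33, edgeR adjusted p = 0.0126). After CFA, where edgeR called 2.84% of all genes, these 8 lists had medians between -0.03 and 0.14. In them 1 gene was called, a smaller share than among all genes. It was Eif4ebp1, which fell (-0.53 ± 0.117, edgeR adjusted p = 0.0152) and whose protein holds back translation until mTOR phosphorylates it. Averaged over both injections, where 8.96% of all genes were called, the genes called in the 8 lists were Mrps9, Mrpl38, Polr1d, Eif4ebp1, Bax and Ndufb3, all lower. Without WT vehicle 4 Bax was not called on average (edgeR adjusted p = 0.0651) and Rps6ka2 was called higher (9.14% of all genes were called).

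Markers of the cells in the ganglion were given the same test after vehicle, in which 2.19% of all genes fell and 2.15% rose. Neuron markers were abundant (24013 to 28660 CPM in sum over 12 genes), and 2 of the 12 fell in KI, Stmn2 (-0.21) and Tubb3 (-0.16). The median of the 12 was -0.06, and those next in order of p, Uchl1 (-0.19) and Elavl4 (0.125), went opposite ways and were not called. Of 10 Schwann cell, 8 satellite glia, 10 macrophage and 8 endothelial markers none was called, and of 8 fibroblast markers 1 rose, Pdgfra (0.59). In the fit without WT vehicle 4, Stmn2 fell (-0.16), and Tubb3 at -0.16 and Pdgfra at 0.53 were not called (edgeR adjusted p = 0.0509 and 0.0975). There 1 of the 8 endothelial markers rose, Flt1 (0.42), a receptor for vascular endothelial growth factor, beside 2.56% of all genes called. The median of the 8 was 0.08. With all 16 libraries the endothelial markers Flt1 (0.36) and Egfl7 (-0.41) went opposite ways, each at an edgeR adjusted p of 0.0505. Satellite glia markers summed to 5929 CPM in WT vehicle 4 and to 3554 to 4709 CPM in the other 15 libraries. Neutrophil and marrow markers (0 of 9 called), red cell markers (0 of 2 tested; 6 of the 9 listed were at 0 in all libraries), lymphocyte markers (0 of 1) and cell division genes (0 of 9) included none that passed. KI CFA 3 held the highest sums of neutrophil and marrow (304 CPM, against 4.91 to 35.2 elsewhere) and red cell markers (27.5 CPM, against 0.321 to 2.42), while its ribosomal protein share of 0.994% lay within the range of its group. The part of these cells in the ribosomal protein levels was not tested.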

How the data were processed

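Poly-A RNA was sequenced from 16 libraries (150 ng of RNA, 15 PCR cycles, strand-selected 50 nt single-end reads), run among 20 libraries on 3 lanes that the labels do not tie to libraries. The submitters' processing notes name HTSeq (0.6.1p1), SAMtools (1.5), Bowtie2 (2.3.5.1), TopHat2 (2.1.1), FastQC and bcl2fastq (2.20), with build mm10; annotation and strand setting are not given in the sources used here. The authors deposited raw read counts per gene, 22742209 to 40910947 per library. The members and lists were chosen with earlier results of these data known.

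Counts were filtered (filterByExpr), scaled by TMM and fitted over the 4 groups with edgeR 4.0.16 (glmQLFTest) in R 4.3.3. The threshold was an adjusted p under 0.05 over 15507 genes. Limma 3.58.1 (voom), DESeq2 1.42.0, other scalings, filters and thresholds, a length offset, a muscle covariate and each library left out were alternatives. CPM are TMM-scaled, and log2 CPM carry a prior count of 2. The biological coefficient of variation was 11.8%. The length trend is a loess fit (span 0.5) on GENCODE M21 transcript length. The edgeR code was tested on simulated counts. Replicate numbers are not used as pairs. Named members were the 8 with the smallest p in each comparison, the 5 highest in CPM, the 5 widest and 5 narrowest in spread, paralogs, and a set by role, with up to 4 genes of each list. Neighbours of Rps25, members with near-zero counts, those highest per kilobase and those named for non-overlap were chosen after their values were seen. A few genes are not reported by name here.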

Additional observations from a re-analysis of the deposited data

Results flagged for a closer look

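In 22 of 168 groups of 4 libraries checked (41 named members and their share of counts), 1 library lay so far from the other 3 that its gap, as a share of the group's range, exceeded Dixon's critical value for groups of that size. Chance alone marks about 1 in 20 such groups, and members of 1 library are not independent. Of the 22, 14 concern WT vehicle 4, the highest of its group each time: Rplp0 at 450.5 CPM (the others 303.6 to 318.8), Rps6 at 349.8, Rps2 at 317.9, Rpl7 at 247.2, Rpl32 at 149.1, Rplp2 at 141.8, Rps25 at 117.9 (the others 55.7 to 57.7), Rpl22 at 109.7, Rpl37a at 103.1, Rpl38 at 102.9, Rps19 at 80.4, Rpl39 at 73.8, Rpl22l1 at 18.4 and Rps27 at 1.60.

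KI CFA 1 was the highest of its group for Rpl11 (217.04 CPM), Rpl23a (204.2), Rpl10a (135.6), Rps14 (129.2), Rpl31 (104.2) and Rplp2 (103.6), and for the share of counts (1.12%, the others 0.988% to 1.01%). KI vehicle 4 had the lowest share of its group (0.948%, the others 0.993% to 0.997%).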

How the results depend on the processing

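For KI against WT after vehicle, the 4 members called (shares of all genes called in the same fit are in brackets; 4.34% here) became 28 at an adjusted p under 0.1 (11.1%), 0 under 0.01 (1.01%), 2 with at least 1 CPM in at least 4 libraries (5.00%), 24 with DESeq2 (9.52%), 0 with only the groups compared (1.42%), and 1 each with the replicate block (3.12%), the muscle covariate (2.07%) and the length offset (3.78%). The median went to -0.0502 with the length offset. Leaving out 1 library gave 0 to 19 (1.81% to 5.78%). For KI against WT after CFA, limma-voom and the fit on only the groups compared called 1 in place of 0 (4.10% and 3.06%), and leaving out 1 library gave 0 to 1. On average over injections the 2 called (8.96%) became 10 under 0.1 (14.0%), 0 under 0.01 (4.06%), 7 with DESeq2 (12.1%), 0 with the muscle covariate (5.19%), and 1 each with DESeq2's size factors, upper-quartile factors, library totals only, factors computed without the members, no filter and the 1 CPM filter (6.2% to 10.0%). Leaving out 1 library gave 0 to 6 (6.35% to 9.14%). For CFA in KI it gave 0 to 1. The interaction's median was 0.0603 with the length offset.

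In alternatives added after seeing the data, leaving out both KI vehicle libraries rich in muscle gave 0 called after vehicle (0.830%) and 0 on average (4.89%). Size factors from the members alone gave 1 (2.64%) and 1 (4.07%), with medians of 0.0088 (vehicle), -0.0059 (CFA in WT) and -0.0030 (interaction), near 0 by construction; Rpl3 (0.013) and Rpl6 (0.028) reversed after vehicle. The replicate block was planned, but the title numbers it uses showed no pairing: 3 of 24 same-numbered pairs had r over 0.1 (-0.21 to 0.13), and 2 of 16 libraries correlated best with their own number. The source names carry other numbers, and these were not checked as pairs or batches. The cause of the other shifts was not tested. Members with few counts (Rps27, Rpl30, Rpl3l) have the widest errors.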
